A study of Mus musculus with 10 samples.

Results

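Dendritic cells take up antigen from tumors and present it to T cells, and 10 genes that mark them or their subsets were followed here in mouse melanoma: Clec9a, Xcr1, Batf3, Irf8, Flt3, Zbtb46, Itgax, Ccl22, Ccl17 and Siglech. They were chosen by symbol, and all 10 were found among the 27919 genes of the table. The tumors were grown from B16F10, a pigmented mouse melanoma line, that either carried an Ly86 overexpression construct (4 tumors, 5 libraries) or the vector alone (3 tumors, 5 libraries). Every mouse in both groups had been given 4 rounds of antibodies to PD-1 and CTLA4, inhibitory receptors of T cells, so no tumor shows the state without that treatment. Strain, sex, age and promoter of the construct are not given in the sources used here. Whole snap-frozen tumor was sequenced as polyadenylated RNA, with no sorting of cells. Libraries came from 2 pieces each for Ly86 tumor 1, Vector tumor 1 and Vector tumor 2.

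Conventional dendritic cells fall into a type 1 subset (cDC1), which presents antigen of dead cells to CD8 T cells, and a type 2 subset (cDC2), which mainly serves CD4 T cells. Plasmacytoid dendritic cells are a separate lineage known for type I interferon. The transcription factors Irf8 and Batf3 are needed for cDC1 development in mice, and the growth factor receptor Flt3 drives all of these lineages. Mature dendritic cells secrete Ccl17 and Ccl22, chemokines for the receptor Ccr4 on T cells.

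Values are given in TPM, transcripts per 1000000 in a library, which allows for transcript length. Differences are Ly86 minus Vector on the log2(TPM + 1) scale, with the pieces of a tumor averaged. This scale understates the change of genes at a few TPM or less. Read depth is unknown, since TPM does not keep it. In bulk tumor, fewer cells of a type and less RNA per cell cannot be told apart.

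The tumors differed widely in how much leukocyte RNA they held. Ptprc, the pan-leukocyte gene for CD45, stood at 22.7 to 62.4 TPM in Ly86 libraries. In Vector libraries it stood at 3.41 and 6.53 TPM in the pieces of tumor 1, 73.05 and 6.98 TPM in the first and second pieces of tumor 2, and 25.3 TPM in tumor 3. The targeted gene, Ly86, had 49.2 to 81.9 TPM in Ly86 libraries, against 6.24 to 30.3 TPM in Vector libraries other than the first piece of tumor 2, which had 80.9 TPM. Between the pieces of Vector tumor 2, the first over the second, Ly86 differed 10.3-fold and Ptprc 10.5-fold. The second over the first gave 1.67 and 1.73 in Ly86 tumor 1 and 1.58 and 1.91 in Vector tumor 1. How much Ly86 RNA came from the construct was not tested. Pigment cell markers were abundant in all 10 libraries, with summed levels of 7 genes of 13581.5 to 19840.3 TPM in Ly86 libraries and 9752 to 18796 TPM in Vector libraries.

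The dendritic cell genes had higher means in Ly86 tumors for 9 of 10 members, Zbtb46 being the exception, but none passed the test over all genes. The median difference of the 10 members was 0.69, beside -0.037 over the 14556 genes tested, of which 43.8% had a higher mean in Ly86 tumors. The members' median was 0.22 without Vector tumor 1, 0.27 with first pieces alone for the divided tumors and 0.44 without the second piece of Vector tumor 2. In limma, 0 members and 0% of all tested genes passed a Benjamini-Hochberg adjusted p of 0.05, while 1565 genes had an unadjusted p under 0.05 (872 without Vector tumor 1 and 2587 without Vector tumor 2). Of the 7 members that reached a mean of 1 TPM and were tested, Clec9a and Itgax were higher at an unadjusted p under 0.05, beside 5.78% of all tested genes. Neither was under 0.05 without Ly86 tumor 1, without Vector tumor 1 or without the second piece of Vector tumor 2, and Clec9a was not without Ly86 tumor 2. With log2 values of the pieces averaged, the same pair had every Ly86 tumor above every Vector tumor, beside 4.71% of all tested genes. With the pieces averaged in TPM instead, the groups would overlap for both genes. None of the 7 was lower by either measure, beside 4.97% of all tested genes at that unadjusted p and 5.75% with groups that did not overlap. With limma's array weights Clec9a and Itgax passed the adjusted threshold, beside 12.6% of all tested genes (4.3% higher), where Vector tumor 3 was weighted at 22.8 and every other tumor under 1. Xcr1, Flt3 and Siglech averaged under 1 TPM and were not in that test. Macrophage, T cell and pan-leukocyte markers had higher means too, with medians of 1.20 for 10 macrophage genes, 1.18 for 6 T cell genes and 1.32 for Ptprc.

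**Figure D1:**
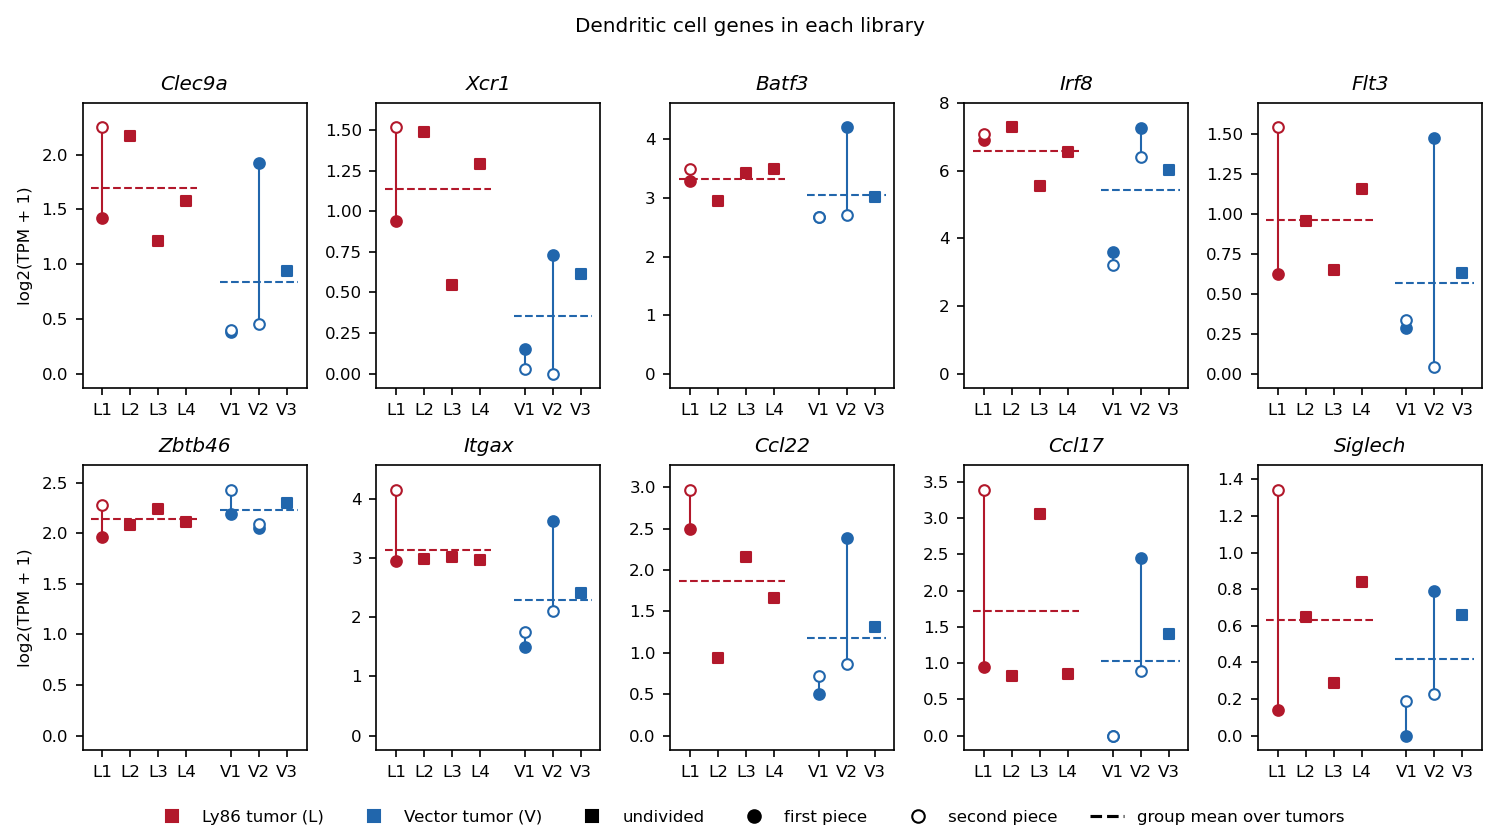
Each panel plots 1 dendritic cell gene as log2(TPM + 1) (vertical axis) in the Ly86 tumors L1 to L4 and the Vector tumors V1 to V3. Lines join the pieces of a divided tumor and dashed lines are group means over tumors; the first piece of V2 lies well above its second piece in most panels, and Zbtb46 is nearly level.

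The surface markers of cDC1 were scarce, and Clec9a separated the tumors of the groups only narrowly, on the log2 average of pieces. Clec9a, the receptor by which cDC1 cells bind the actin of dead cells, had 1.67 and 3.75 TPM in the pieces of Ly86 tumor 1 and 3.50, 1.32 and 1.99 TPM in Ly86 tumors 2 to 4. It had 0.30 and 0.32 TPM in the pieces of Vector tumor 1, 2.79 and 0.37 TPM in those of Vector tumor 2 and 0.92 TPM in Vector tumor 3. With log2 values of the pieces averaged the groups did not overlap. The margin was narrow, 1.21 log2(TPM + 1) in Ly86 tumor 3 against 1.19 in Vector tumor 2. Averaged in TPM instead, Vector tumor 2 would lie above Ly86 tumor 3. Ly86 tumors averaged 1.70 ± 0.40 (SD over 4 tumors) and Vector tumors 0.84 ± 0.41 (SD over 3) on the log2(TPM + 1) scale. The difference was 0.86 (SE 0.32, limma adjusted p = 0.441), with a two-sided exact permutation p of 0.0571 over the 35 assignments of tumors. It was 0.63 without Vector tumor 1.

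Xcr1, the cDC1 receptor for the chemokine Xcl1, had 0.92 and 1.86 TPM in the pieces of Ly86 tumor 1 and 1.80, 0.46 and 1.45 TPM in tumors 2 to 4. In Vector tumors it had 0.11 and 0.02 TPM in the pieces of tumor 1, 0.66 TPM and a listed 0 in those of tumor 2, and 0.53 TPM in tumor 3. Ly86 tumor 3 lay below Vector tumor 3, so the groups overlapped, while the other 3 Ly86 tumors lay above every Vector tumor. The difference was 0.78 (SE 0.26, limma adjusted p = 0.664 in a fit with no filter on low values), with an exact permutation p of 0.0857. Both Xcr1 and Clec9a were lowest in Vector tumor 1 and the second piece of Vector tumor 2.

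Batf3, the factor that cDC1 cells need to form and persist, was less variable. It had 8.80 and 10.3 TPM in the pieces of Ly86 tumor 1 and 6.68, 9.80 and 10.3 TPM in tumors 2 to 4, against 5.38 TPM in both pieces of Vector tumor 1, 17.5 and 5.56 TPM in those of Vector tumor 2 and 7.12 TPM in Vector tumor 3. The highest value of all was thus in a Vector library, and the difference was 0.27 (SE 0.23, limma adjusted p = 0.705). It was -0.0082 when divided tumors entered by their first pieces alone, 0.077 without Vector tumor 1 and 0.017 without the second piece of Vector tumor 2. Batf3 is also made by activated T cells and other leukocytes.

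Irf8 was the most abundant of the 10 genes in TPM. It is a factor of the interferon regulatory family that cDC1 cells, plasmacytoid cells, monocytes, macrophages and B cells use, and interferon gamma induces it. Ly86 tumors had 119 and 135 TPM in the pieces of tumor 1 and 155, 45.5 and 92.4 TPM in tumors 2 to 4. Vector tumors had 11.1 and 8.27 TPM in the pieces of tumor 1, 153 and 84.6 TPM in those of tumor 2 and 63.7 TPM in tumor 3. Vector tumor 1 was far below all other tumors, and the remaining tumors of both groups overlapped. The difference was 1.17 (SE 0.77, limma adjusted p = 0.611). Leaving out Vector tumor 1 gave 0.16, and leaving out Vector tumor 2 gave 1.88.

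The second piece of Vector tumor 2 had high Irf8 beside few leukocyte transcripts. Its Irf8 was 12.1 times its Ptprc in TPM, where the other 9 libraries had ratios from 1.27 (second piece of Vector tumor 1) to 3.52 (Ly86 tumor 2). Between the pieces of that tumor, the first over the second, Ptprc differed 10.5-fold, Clec9a 7.54-fold and Itgax 3.44-fold, but Irf8 only 1.80-fold. Macrophage markers summed to 217 TPM in the second piece, within the 200 to 314 TPM of Vector tumor 1. T cell markers summed to 11.4 TPM there, above the 4.02 and 4.03 TPM of Vector tumor 1 and below the 25.4 to 86.1 TPM elsewhere. Interferon gamma and genes that it induces, picked after the values were seen, were then read in the same libraries. In that piece Irf1 had 130 TPM and Gbp2 209 TPM, against 27.5 to 36.7 and 15.8 to 30.2 TPM in Vector tumor 1. Elsewhere Irf1 had 117 to 281 TPM and Gbp2 160 to 463 TPM. Ifng itself had 2.13 TPM in that piece, beside a listed 0 and 0.09 TPM in Vector tumor 1 and 2.35 to 6.30 TPM elsewhere. Cxcl9 had 34.5 TPM, beside 5.16 and 10.3 TPM in Vector tumor 1 and 41.6 to 291 TPM elsewhere. Ciita had 7.41 TPM, beside 0.95 and 1.16 TPM in Vector tumor 1 and 4.61 to 29.6 TPM elsewhere. Which cells carried this Irf8 and what raised it were not tested.

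**Figure D2:**
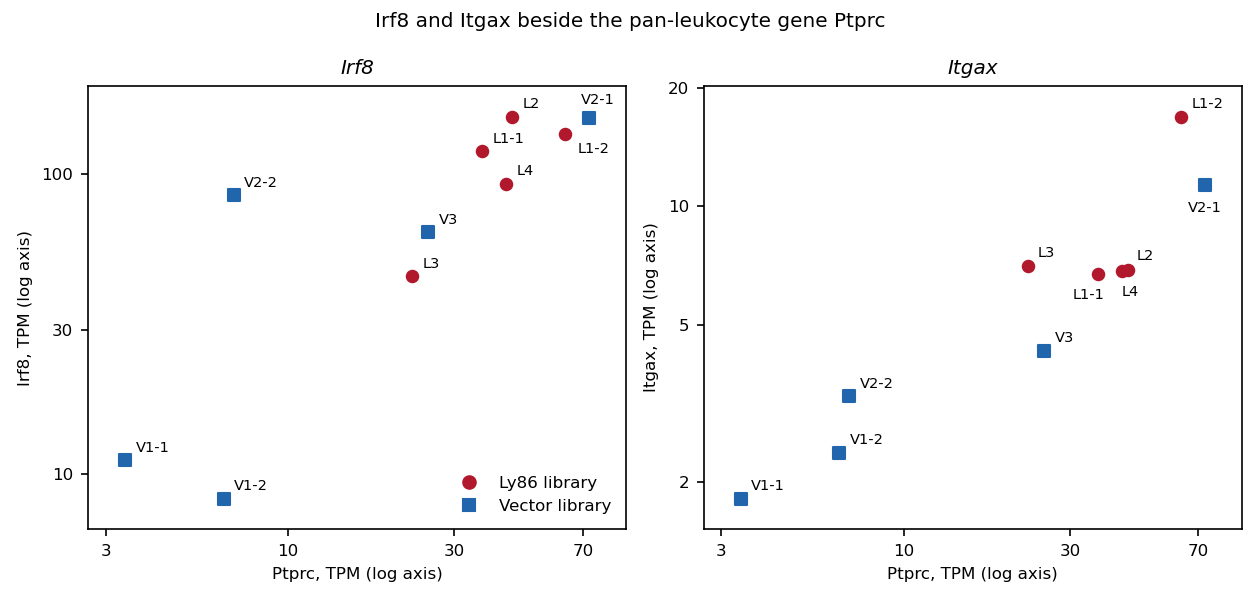
Irf8 (left) and Itgax (right) in TPM are plotted against Ptprc in TPM for each library, on log axes, with L for Ly86 and V for Vector tumors and the piece after the dash. V2-2, the second piece of Vector tumor 2, holds 84.6 TPM of Irf8 at 6.98 TPM of Ptprc, while its Itgax of 3.30 TPM lies beside the other libraries with little Ptprc.

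The Irf8 promoter is shown because of the high Irf8 in that piece, and its letters do not tell the cause of that level. The sequence is RefSeq's on build GRCm38.p6, bases 250 to 1 before the first listed start, chr8:120736108-120736357, plus strand. Capitals mark TTCNNNGAA, the letters of the interferon gamma activated site. The window before the other listed start of Irf8 held no match.
Irf8 promoter: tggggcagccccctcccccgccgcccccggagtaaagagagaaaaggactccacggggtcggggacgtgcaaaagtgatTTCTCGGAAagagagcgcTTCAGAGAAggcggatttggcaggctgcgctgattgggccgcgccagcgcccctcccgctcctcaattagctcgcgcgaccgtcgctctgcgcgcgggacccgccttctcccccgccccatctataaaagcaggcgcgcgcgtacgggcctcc
The same letters were found on either strand in the windows of 4 of the 10 genes, Batf3, Ccl17, Irf8 and Siglech, beside 7.02% of all 32851 windows of 250 bases in the RefSeq table. Each match is given with 10 bases on either side, printed from the plus strand, on which all 4 genes lie. TTCNNNGAA reads the same on both strands, so a match has no direction.
Batf3, chr1:191098165-191098193, 239 to 231 bases before the start: gccacgtgacTTCCACGAAgagcgggggc
Ccl17, chr8:94810344-94810372, 99 to 91 bases before the start: ttatctcaaaTTCTTTGAAtttctctagt
Irf8, chr8:120736177-120736205, 171 to 163 bases before the start: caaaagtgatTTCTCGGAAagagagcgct
Irf8, chr8:120736195-120736223, 153 to 145 bases before the start: aagagagcgcTTCAGAGAAggcggatttg
Siglech, chr7:55768051-55768079, 123 to 115 bases before the start: acagcctttaTTCTCTGAAccacacccac
The AP-1 letters TGANTCA, which dimers of Batf family proteins can bind, were found for Itgax and Zbtb46, beside 6.75% of all windows. The interferon-stimulated response element (GAAA, 2 bases of any kind, GAAA) and the ETS-IRF composite element (GGAA, 2 bases of any kind, GAAA) were found in no member's window, beside 2.98% and 2.3% of all windows. The windows of Batf3, Ccl22, Itgax and Siglech overlap annotated exons of the same gene, and that of Clec9a an exon of Clec1b. Matches in such windows may thus lie within a transcript. Matches describe letters only. No chromatin or binding was measured here.

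Of the genes shared by several dendritic cell types, Zbtb46 was nearly level. Itgax was higher in every Ly86 tumor when the pieces were averaged as log2 values. Itgax, which encodes CD11c and is also made by many tumor macrophages, had 6.73 and 16.9 TPM in the pieces of Ly86 tumor 1 and 6.90, 7.08 and 6.85 TPM in Ly86 tumors 2 to 4. Vector tumors had 1.82 and 2.38 TPM in the pieces of tumor 1, 11.35 and 3.30 TPM in those of tumor 2 and 4.31 TPM in tumor 3. With log2 values of the pieces averaged, all 4 Ly86 tumors lay above all 3 Vector tumors. The first piece of Vector tumor 2 exceeded 4 of the 5 Ly86 libraries. Averaged in TPM instead, Vector tumor 2 would lie above Ly86 tumors 2 to 4. The separation and the permutation p below therefore rest on the log2 average. On the log2(TPM + 1) scale Ly86 tumors averaged 3.13 ± 0.28 (SD over 4 tumors) and Vector tumors 2.30 ± 0.63 (SD over 3). The difference was 0.83 (SE 0.31, limma adjusted p = 0.441), and the exact permutation p was 0.0286, which no split of 4 and 3 tumors can go below. It was 0.49 without Vector tumor 1. Itgax per Ptprc, a ratio of TPM, was 0.157 to 0.312 in Ly86 libraries and 0.155 to 0.534 in Vector libraries, with the 3 highest ratios in Vector libraries.

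Flt3, the receptor for the growth factor Flt3l, had 0.54 and 1.91 TPM in the pieces of Ly86 tumor 1 and 0.94, 0.57 and 1.23 TPM in tumors 2 to 4. Vector tumors had 0.22 and 0.26 TPM in the pieces of tumor 1, 1.78 and 0.03 TPM in those of tumor 2 and 0.55 TPM in tumor 3. At these levels the groups overlapped, Ly86 tumor 3 lying below Vector tumor 2. The difference was 0.39 (SE 0.18, limma adjusted p = 0.701 with no filter), and it was 0.049 when divided tumors entered by their first pieces alone and 0.16 without the second piece of Vector tumor 2.

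Zbtb46, a factor of the conventional dendritic cell lineage that endothelial cells also make, did not follow the other markers. It had 2.90 and 3.87 TPM in the pieces of Ly86 tumor 1 and 3.23, 3.74 and 3.31 TPM in tumors 2 to 4, against 3.58 and 4.40 TPM in the pieces of Vector tumor 1, 3.14 and 3.27 TPM in those of Vector tumor 2 and 3.92 TPM in Vector tumor 3. Its highest value was in a library with 6.53 TPM of Ptprc, and its range over the 10 libraries on the log2 scale was under that of every other member. The difference was -0.089 (SE 0.17, limma adjusted p = 0.897).

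The chemokines Ccl22 and Ccl17 varied more among Ly86 tumors than between groups. The genes lie near each other on mouse chromosome 8, with Cx3cl1 between them. Ccl22 had 4.64 and 6.85 TPM in the pieces of Ly86 tumor 1 and 0.91, 3.47 and 2.16 TPM in tumors 2 to 4, against 0.42 and 0.65 TPM in the pieces of Vector tumor 1, 4.23 and 0.82 TPM in those of Vector tumor 2 and 1.48 TPM in Vector tumor 3. Ly86 tumor 2, the highest tumor for both Clec9a and Irf8, was lower than Vector tumors 2 and 3 for Ccl22. The difference was 0.69 (SE 0.45, limma adjusted p = 0.606). It was 0.40 without Ly86 tumor 1 and likewise without Vector tumor 1, and 0.43 without the second piece of Vector tumor 2.

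Ccl17 had 0.93 and 9.51 TPM in the pieces of Ly86 tumor 1 and 0.76, 7.31 and 0.81 TPM in tumors 2 to 4. It was listed at 0 in both pieces of Vector tumor 1 and had 4.48 and 0.86 TPM in those of Vector tumor 2 and 1.65 TPM in Vector tumor 3. High Ccl17 was thus found in Ly86 tumor 3, the second piece of Ly86 tumor 1 and the first piece of Vector tumor 2. Between the pieces of Ly86 tumor 1, the second over the first, Ccl17 differed 10.2-fold and Ccl22 1.48-fold. Ly86 tumor 3 had the highest Ccl17 per Ccl22, at 2.11, although its Clec9a and Xcr1 were the lowest of the Ly86 tumors. The group difference for Ccl17 was 0.70 (SE 0.64, limma adjusted p = 0.724). It was 0.18 without Vector tumor 1, 0.25 without Ly86 tumor 3 and 0.44 without the second piece of Vector tumor 2.

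Siglech, a lectin of mouse plasmacytoid dendritic cells, was the scarcest member. It had 0.10 and 1.54 TPM in the pieces of Ly86 tumor 1 and 0.57, 0.22 and 0.79 TPM in tumors 2 to 4, against a listed 0 and 0.14 TPM in the pieces of Vector tumor 1, 0.73 and 0.17 TPM in those of Vector tumor 2 and 0.58 TPM in Vector tumor 3. The groups overlapped, with a difference of 0.21 (SE 0.18, limma adjusted p = 0.820 with no filter), and of 0.045 without Vector tumor 1. The pieces of Ly86 tumor 1 held the highest value of all libraries and the lowest above 0.

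In 2 of the 3 divided tumors, the members' median difference between pieces was at least the 0.69 between groups, in Ly86 tumor 1 only just. Gene by gene this did not always hold. Clec9a, Xcr1, Batf3, Irf8 and Ccl22 differed less between the pieces of Ly86 tumor 1 than between groups. In Vector tumor 2, Xcr1, Irf8 and Zbtb46 did. All 10 members were higher in the second piece of Ly86 tumor 1 than in its first, by a median of 0.70 on the log2(TPM + 1) scale. In Vector tumor 2, 9 of 10 were higher in the first piece, all but Zbtb46, and the median size of the difference was 1.45. The pieces of Vector tumor 1 differed by a median of 0.16. Markers of skin epithelium moved with pieces as well. The 5 Langerhans cell and keratinocyte genes summed to 1869 and 80.6 TPM in the first and second pieces of Ly86 tumor 1 and to 537 and 0.06 TPM in those of Vector tumor 2, with 0.42 to 39.0 TPM elsewhere. Cd207, which marks Langerhans cells and some cDC1 cells of skin, had 1.15 TPM in the first piece of Ly86 tumor 1 and 0.22 TPM in the first piece of Vector tumor 2, and was listed at 0 in the other 8 libraries. Their part in the members' values was not tested. In Ly86 tumor 1 the piece with more of these epithelial transcripts had less of all 10 members, and in Vector tumor 2 it had more of 9.

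With the Ptprc level of each tumor as a covariate, all 10 differences were smaller in size. They were 0.36 for Clec9a (SE 0.36), 0.27 for Itgax (SE 0.30), 0.026 for Batf3 (SE 0.29) and -0.71 for Irf8 (SE 0.33), with limma adjusted p of 0.764 to 0.984 for these 4 genes. No tested member had an unadjusted p under 0.05 in that fit, beside 6.23% of all genes. The median of the 10 members was 0.18 and 8 were higher, beside 39.1% of all 14555 genes. Taken instead as the log2(TPM + 1) level minus that of Ptprc in the same tumor, all 10 members were lower in Ly86 tumors, by differences of -1.41 for Zbtb46 to -0.15 for Irf8 with a median of -0.63. Without Vector tumor 1 that median was -0.39 and 8 of 10 were lower. Without Vector tumor 2, 9 were lower and Irf8 was higher, at 0.23. Ptprc itself differed by 1.32 (SE 0.53, limma adjusted p = 0.453), with 22.7 to 62.4 TPM in Ly86 libraries beside the wide Vector range given above. Adding 1 to each TPM shrinks the differences of scarce members more than that of Ptprc. With a pseudocount of 0.1 the members' own differences were 2.03 for Xcr1, 1.55 for Clec9a and 1.53 for Ccl17. The others then ran from -0.11 for Zbtb46 to 1.21 for Irf8. Among those others, the scarce members Flt3, Ccl22 and Siglech stood at 1.08, 1.06 and 0.64, below the 1.32 of Ptprc. That value of Ptprc is for a pseudocount of 1, and its value with 0.1 is not given here. A fall relative to Ptprc is therefore not shown for Xcr1, Clec9a and Ccl17. For the other scarce members it was not tested with the smaller pseudocount.

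**Figure D3:**
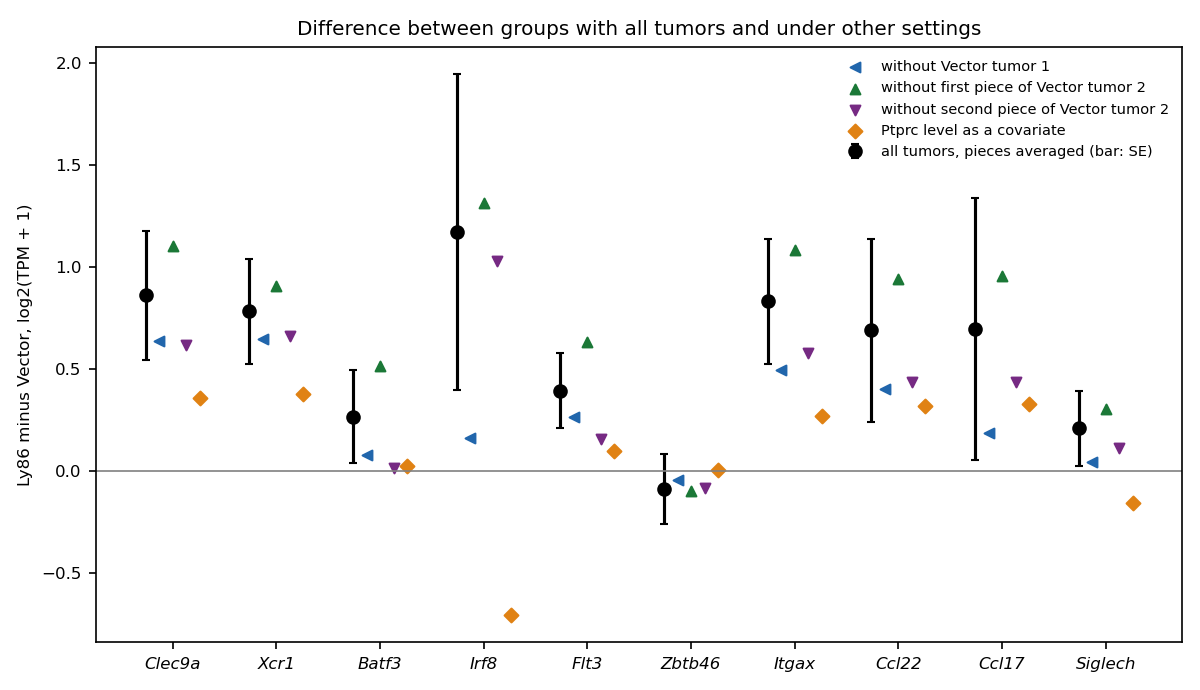
Ly86 minus Vector differences on the log2(TPM + 1) scale (vertical axis) are shown for each member with all tumors (black, bars are limma SE, from the fit with no filter for Xcr1, Flt3 and Siglech), without Vector tumor 1, without either piece of Vector tumor 2, and with Ptprc as a covariate. Irf8 stands at 1.17 with all tumors, 0.16 without Vector tumor 1 and -0.71 with the covariate.

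Other genes of the same cell types were read as lists. Among other cDC1 genes, 6 of 7 tested had higher means in Ly86 tumors, with a median of 0.30 and 0 past the threshold. With Ptprc as a covariate the median was 0.15. Tlr3, a sensor of double-stranded RNA that cDC1 cells are rich in, had 23.3 to 33.9 TPM in Ly86 libraries and 14.0 to 24.0 TPM in Vector libraries, a difference of 0.62 (SE 0.19). Id2, a factor of the conventional lineage made by many cells, differed by 0.30 (SE 0.10), and Naaa, a lysosomal amidase also found in macrophages, by 1.12 (SE 0.42). The limma adjusted p was 0.437 to 0.445 for these 3 genes.

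Among cDC2 genes, 10 of 12 tested had higher means, with a median of 0.48 and 0 past the threshold. The median was 0.29 without Vector tumor 1, 0.27 without the second piece of Vector tumor 2 and 0.076 with Ptprc as a covariate. Clec10a, a lectin shared by cDC2 cells and macrophages, had 16.1 to 45.4 TPM in Ly86 libraries, against 1.36 to 14.6 TPM in Vector libraries other than the first piece of tumor 2, which had 70.3 TPM. Its difference was 1.82 (SE 0.42, limma adjusted p = 0.437). Itgam, which encodes CD11b of cDC2 cells and other myeloid cells, differed by 1.30 (SE 0.50), and Rbpj, the nuclear partner of Notch receptors, by 0.46 (SE 0.17), with limma adjusted p of 0.449 and 0.441.

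Among mature and migratory dendritic cell genes, 12 of 16 tested had higher means and 4 lower, with a median of 0.40 and 0 past the threshold. Without Vector tumor 1 the median was 0.13 and 9 were higher, without the second piece of Vector tumor 2 it was 0.087, and with the covariate -0.17. Cd83, a surface marker of mature dendritic cells, had 5.13 to 9.72 TPM in Ly86 libraries and 1.29 to 5.70 TPM in Vector libraries, a difference of 0.94 (SE 0.21). Cd40, the receptor through which T cells license dendritic cells, differed by 1.31 (SE 0.38), and Marcksl1, an actin-linked protein also made by tumor cells, by -0.40 (SE 0.13). The limma adjusted p was 0.437 for all 3. Of other plasmacytoid genes, 9 of 11 tested had higher means, with a median of 0.76 and 0 past the threshold. Without Vector tumor 1 that median was 0.23 and 6 were higher, without the second piece of Vector tumor 2 it was 0.22, and with the covariate -0.16. The inhibitory receptor Lair1 differed by 1.26 (SE 0.42), Ly6c2, also abundant in monocytes, by 1.50 (SE 0.60) and Irf7, which drives type I interferon, by 1.22 (SE 0.54), with limma adjusted p of 0.437 to 0.468. These 3 genes are not restricted to plasmacytoid cells.

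The ligands and receptors that pair with the members had higher means in all 5 tested genes, with a median of 0.89 and 0 past the threshold. The median was 0.48 without Vector tumor 1 and, with the covariate, 0.017 with 3 of 5 higher. Flt3l, the growth factor that binds Flt3, had 6.34 to 10.4 TPM in Ly86 libraries, against 1.19 and 2.26 TPM in the pieces of Vector tumor 1, 7.23 and 3.51 TPM in those of Vector tumor 2 and 5.72 TPM in Vector tumor 3. All Ly86 tumors lay above all Vector tumors, with a difference of 0.94 (SE 0.33, limma adjusted p = 0.440). Xcl1, the ligand of Xcr1 from NK and CD8 T cells, had 1.32 and 11.2 TPM in the pieces of Ly86 tumor 1 and 4.40, 1.40 and 4.69 TPM in tumors 2 to 4, against 0.34 to 2.74 TPM in Vector libraries, a difference of 0.89 (SE 0.35, limma adjusted p = 0.449). Itgb2, the CD18 chain that pairs with Itgax, differed by 1.16 (SE 0.47), and the receptor chains Csf2rb and Csf2ra for the growth factor GM-CSF by 0.76 (SE 0.41) and 0.50 (SE 0.32), with limma adjusted p of 0.453, 0.533 and 0.598. Ccr4, the receptor for Ccl17 and Ccl22, reached 0.40 TPM at most in Ly86 libraries and 0.14 TPM at most in Vector libraries. Csf2, which encodes GM-CSF, was listed at 0 in 4 libraries and reached 1.93 TPM, in the second piece of Ly86 tumor 1.

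**Figure D4:**
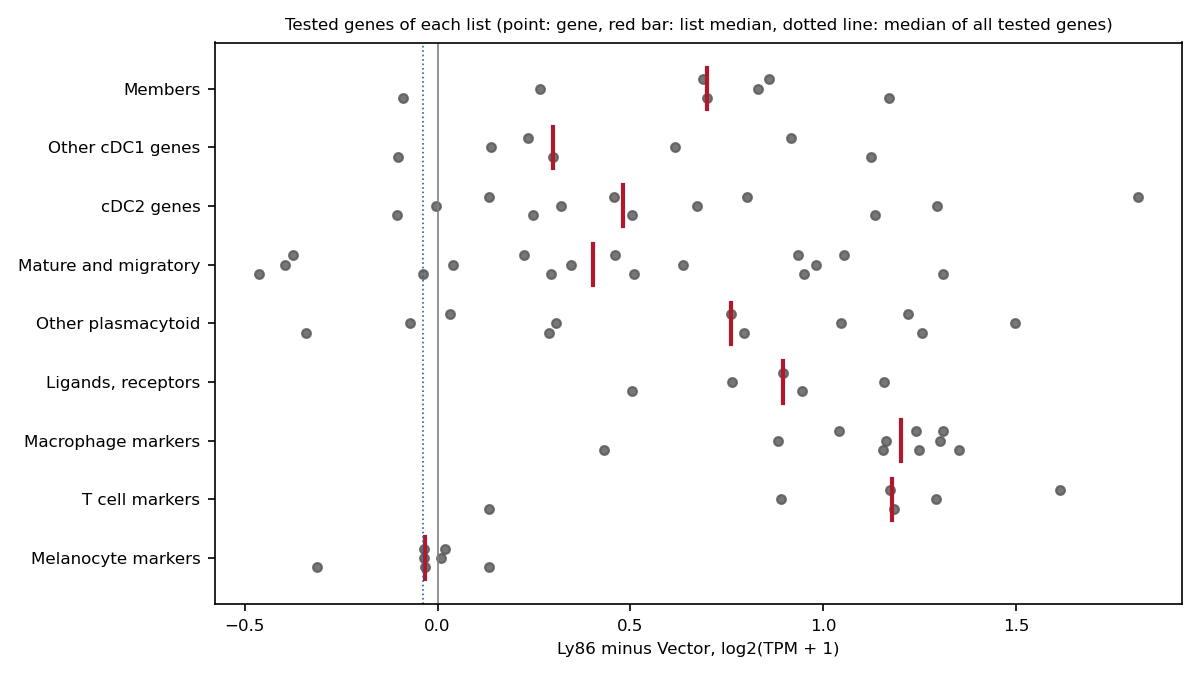
Points are Ly86 minus Vector differences on the log2(TPM + 1) scale (horizontal axis) of the tested genes of each list, red bars are list medians, and the dotted line is the median of all tested genes. Members have a median of 0.70 over the 7 tested genes, macrophage markers 1.20 and pigment cell markers -0.032.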

How the data were processed

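RNA sequencing covered 10 libraries of 7 tumors. Per the submitters' processing notes, STAR 2.7.10b, RSEM 1.3.3 and mouse build mm39 were used. The values the authors deposited are log2(TPM + 1), a scale read from the values: undoing the log2 gave a multiple of 0.01, within 1e-04 hundredths, for 99.9% of them, and sums of 994679 to 996446 per library. Depth is unknown, so no counting interval is given. The test was planned for TPM and suits this scale as well.

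Log2 values of the pieces were averaged per tumor. Tumors carry numbers in the labels, but no statement that they grew in separate mice. The p-values therefore cover only the variation among these 7 tumors, which may be partly technical. All 14556 genes with a mean of at least 1 TPM entered limma 3.58.1 in R 4.3.3 (eBayes with trend, Benjamini-Hochberg adjustment, threshold 0.05). Exact permutation tests were two-sided, over 35 assignments. The fit was tested on simulated data with independent errors for each gene, which does not cover genes that vary together across tumors. The members, lists and tests were chosen with earlier results of these data known. All members were named, with Ly86, the 3 genes of smallest unadjusted p in each further dendritic cell list, and the genes paired with members. The listed symbols Lamp3 and Sept3 did not match the table. Values of some listed genes are not reported here. Promoters came from RefSeq on GRCm38.p6 by symbol, for 10 of 10 members, and no coordinates of mm39 are given. Plots used Python 3.11.15 and matplotlib 3.10.9.

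The alternatives were pseudocounts of 0.1 and 0.5, no filter, a minimum mean of 5 TPM, median-of-ratios scaling, all 10 libraries with tumor as random effect, either piece of the divided tumors alone, the tumor number as a block, limma's array weights, Ptprc as a covariate, and leaving out each tumor. Fits lacking either piece of Vector tumor 2 were chosen after seeing the data.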

Additional observations from a re-analysis of the deposited data

Results flagged for a closer look

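Itgax in the 4 Ly86 tumors held a tumor that stood apart. Ly86 tumor 1, at 3.56 log2(TPM + 1), lay above the other 3, which stood at 2.97 to 3.01, and its gap to the nearest was 0.929 of the whole range, above Dixon's critical value for 4 samples. Its pieces held 6.73 and 16.9 TPM, so only the second piece lay above the other Ly86 libraries. The Ly86 group was tested in this way for 10 genes, and chance flags about 1 in 20 such groups. Groups of 3, as the Vector tumors are, were not tested.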

How the results depend on the processing

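Members were higher in Ly86 tumors for 7 to 9 of 10 under all 20 alternatives, with 9 in 18 of them, and leaving out any 1 tumor gave 9. Not all of these alternatives could change the count. Members' differences were computed regardless of the filter, so changes of the filter repeat the main values. Blocking by tumor number gave the same differences as leaving out Ly86 tumor 4, a number that no Vector tumor shares. Their median difference of 0.69 ranged from 0.18 with Ptprc as a covariate to 1.07 with a pseudocount of 0.1, and from 0.22 (without Vector tumor 1) to 0.85 when 1 tumor was left out. The covariate turned Irf8 to -0.71, Siglech to -0.16, Zbtb46 to 0.0064, the mature and migratory list to a median of -0.17 and the other plasmacytoid list to -0.16. With first pieces alone for the divided tumors, the list medians were 0.26 for cDC2, 0.14 for mature and migratory, 0.21 for other plasmacytoid and 0.55 for ligand and receptor genes. When divided tumors entered by their first pieces alone, Batf3 was -0.0082 and Siglech -0.0048. No genes passed limma with all tumors. With array weights 1832 passed, among them 626 higher (4.3% of those tested), Clec9a at 0.82 (adjusted p = 0.0360) and Itgax at 0.76 (adjusted p = 0.0368), in a fit that weighted Vector tumor 3 at 22.8 and each other tumor under 1. Over all alternatives the adjusted p ran from 0.0360 to 1 for Clec9a and 0.0368 to 1 for Itgax. The genes passing numbered 1 with only the first pieces, 6 with only the second, 1 with the covariate, 1 when Vector tumor 2 lacked its first piece and 0 to 2 without 1 tumor. Genes at an unadjusted p under 0.05, 1565 in all, numbered 318 with only the first pieces, 3319 with only the second, 4887 with array weights, 907 with the covariate, 3012 when Vector tumor 2 lacked its first piece and 536 when it lacked its second, and 872 to 2587 without 1 tumor. With the tumor number as a replicate block, 645 genes had an unadjusted p under 0.05, 0 passed, and the members' median was 0.74. Same-numbered tumors did not deviate together (correlations of -0.172, -0.11 and -0.308 for numbers 1 to 3), so the numbers were not taken as pairs. The causes of these changes were not tested. Depth is unknown, and members under 1 TPM carry the least information.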
